A study of Glycine max with 24 samples.

Results

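Transcripts were compared between roots of the soybean (Glycine max) plant introduction PI 416937, called PI here, that received aluminium (Al) plus magnesium (Mg) for 72 h and PI roots that received Al alone for the same time. The 2 groups held 3 arrays each, which makes 6 of the 24 arrays of the study. Seedlings stood in a hydroponic solution with 10 µM Al, the Mg dose is not in the labels, and RNA came from the last 1 cm of the root. The other 18 arrays hold the same treatments at 12 h and the cultivar Young at 12 and 72 h. The labels call PI sensitive to Al and Young tolerant, whereas PI 416937 is known in the literature as an Al-tolerant line. Titles of the Al alone arrays end in an unexplained letter c. They were taken as Al alone on the word of their descriptions. Every plant had received Al, so the comparison shows what differed with Mg in Al-treated roots, not what Al changes in a root. The labels do not say whether the 3 arrays of a group came from separate plants, pools or experiments. The p-values therefore measure the spread between arrays only, and the small number of arrays limits the precision.

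In acid soils Al ions bind to the wall and plasma membrane of root tip cells and stop their elongation, and Mg supplied with Al is known to lessen this inhibition in legumes. Roots under such stress commonly raise transcripts of pathogenesis-related proteins, of WRKY and NAC transcription factors and of detoxifying enzymes. Soybean also makes glyceollins, isoflavonoid defence compounds with a prenyl side chain. Elongation of a root tip draws on gibberellin and auxin signals, on aquaporins that let water into the cell, and on expansins that loosen the wall.

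Each value is the log2 of the intensity that the authors deposited for a probe set, a group of short probes meant to measure 1 transcript. Some probe sets may also take up signal from similar transcripts, so the values of closely related genes may not be separate. Across 33117 probe sets above a signal filter, arrays correlated at r = 0.984 to 0.991 among Al plus Mg arrays and 0.985 to 0.989 among Al alone arrays. Between the 2 groups r was 0.917 to 0.949. Al plus Mg arrays had 77.6% to 78.5% of the soybean probe sets above background, against 80.2% to 81.0% in Al alone arrays. Background was set for each array. Its level was 3.07, 3.14 and 2.99 with Al plus Mg, against 2.79, 2.82 and 2.75 with Al alone. The shares were thus counted against different levels. All 6 arrays carried the mark of PI: 23 or 24 of 29 probe sets that separated the genotypes at 12 h lay on the PI side, against 0 to 2 in the Young arrays of 72 h. Control spikes foreign to soybean (bioB, bioC, bioD and cre) averaged 12.49, 12.97 and 12.27 in Al plus Mg arrays, against 12.14, 12.04 and 12.21 in Al alone arrays. Al plus Mg replicate 2 had the highest spike mean of all 24 arrays, and it was also the one that stood apart in 53 of the 86 probe sets where these 3 arrays spread by more than 3 log2 units.

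Many transcripts were measured with Al alone and were far lower or at background with Mg, while large rises were few. At least 2-fold lower with Al plus Mg were 2972 probe sets, 7.91% of the 37593 soybean probe sets tested, and at least 2-fold higher were 993, or 2.64% (limma, adjusted p under 0.05). Among differences of at least 8-fold there were 914 falls and 6 rises. At 32-fold or more there were 285 falls and no rise. With every array at background set to its bound, a level that 1% of probe sets for other organisms exceeded, these counts were 863 and 5 at 8-fold and 261 and 0 at 32-fold. Of the probe sets that fell, 375 were at or under the bound on all 3 Al plus Mg arrays and above it on all 3 Al alone arrays. The reverse held for 26 that rose. The bounds were higher on Al plus Mg arrays, so the 375 and the 26 rest on unequal levels. In a whole root tip, fewer cells of a type and less RNA per cell cannot be told apart.

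**Figure D1:**
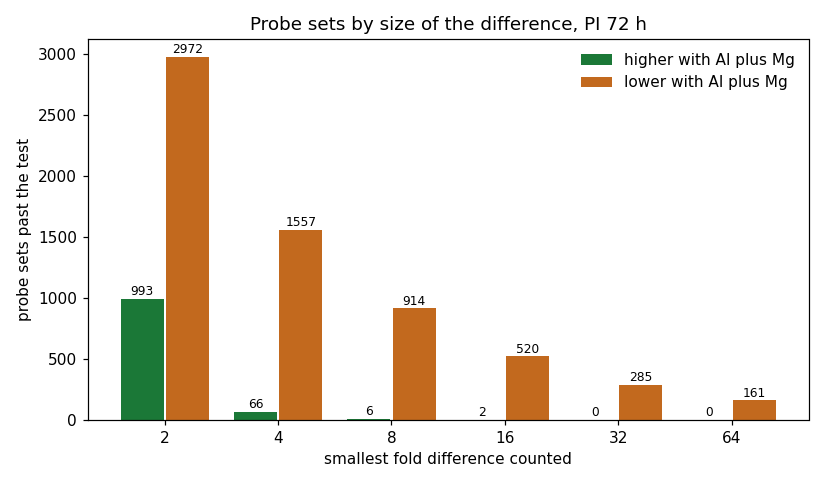
Number of soybean probe sets that passed the test (vertical axis) at or above each fold difference between Al plus Mg and Al alone in PI roots at 72 h (horizontal axis). At 2-fold there were 993 higher and 2972 lower, at 8-fold 6 and 914, and at 64-fold 0 and 161.

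Without a limit on size, 12685 probe sets passed, 33.7% of those tested, and 7781 of them (20.7%) were higher and 4904 (13%) lower. The rises were small, with a median of 0.57 on the log2 scale, against -1.28 for the falls. The share of rises depended on the scale: with array medians made equal there were 11508 higher and 4436 lower, since this moved the median difference of all probe sets to 0.14, against 0.06 as deposited. The array also carries 23394 probe sets for soybean pathogens and a nematode, which stand for no soybean transcript. In a fit over all probe sets but controls, 26.4% of these passed as higher with Al plus Mg and 0.15% as lower. Their median difference was 0.01, and at 2-fold 4 were higher and 19 lower. The 20.7% above came from the fit of soybean probe sets alone, so the shares are not from the same fit. The part of this background in the small rises of soybean probe sets was not tested, and counts at 2-fold are given beside the others. The 3 and 3 arrays did not overlap in 36.7% of probe sets with Al plus Mg above and in 15% with Al plus Mg below.

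A separate symbol was on hand for 1005 genes. Of these 195 (19.4%) were higher and 235 (23.4%) lower, 33 and 175 at 2-fold, with a median log2 difference of 0.02. These shares are set beside the gene groups below. The groups also hold some of 126 genes with a locus code that were named by a synonym and are not among the 1005. Over all 6031 genes with a probe set the shares differed: 1455 (24.13%) were higher and 992 (16.45%) lower, 174 and 628 at 2-fold.

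The pathogenesis-related proteins PR-10 and PR1-1 had the largest falls among genes with a symbol. PR-10, a small intracellular protein of the plant stress response, was at 2.41, 2.41 and 2.76 with Al plus Mg, against 14.26, 14.32 and 13.68 with Al alone. The signal was strong in all Al alone arrays and at background in all Al plus Mg arrays, at least 2078-fold lower with Mg (limma, adjusted p = 4.65e-12). PR1-1, of the secreted PR-1 family, was at 2.82, 2.33 and 2.52 with Al plus Mg, against 13.45, 14.40 and 13.56 with Al alone, at least 1708-fold lower (adjusted p = 5.12e-08). No array of one group came near those of the other for either gene. A second PR-1 gene, PR1-7, was at 3.10, 2.62 and 2.45 with Al plus Mg, 2 of the arrays at background, against 11.90, 11.45 and 11.43 with Al alone (adjusted p = 3.12e-05).

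**Figure D2:**
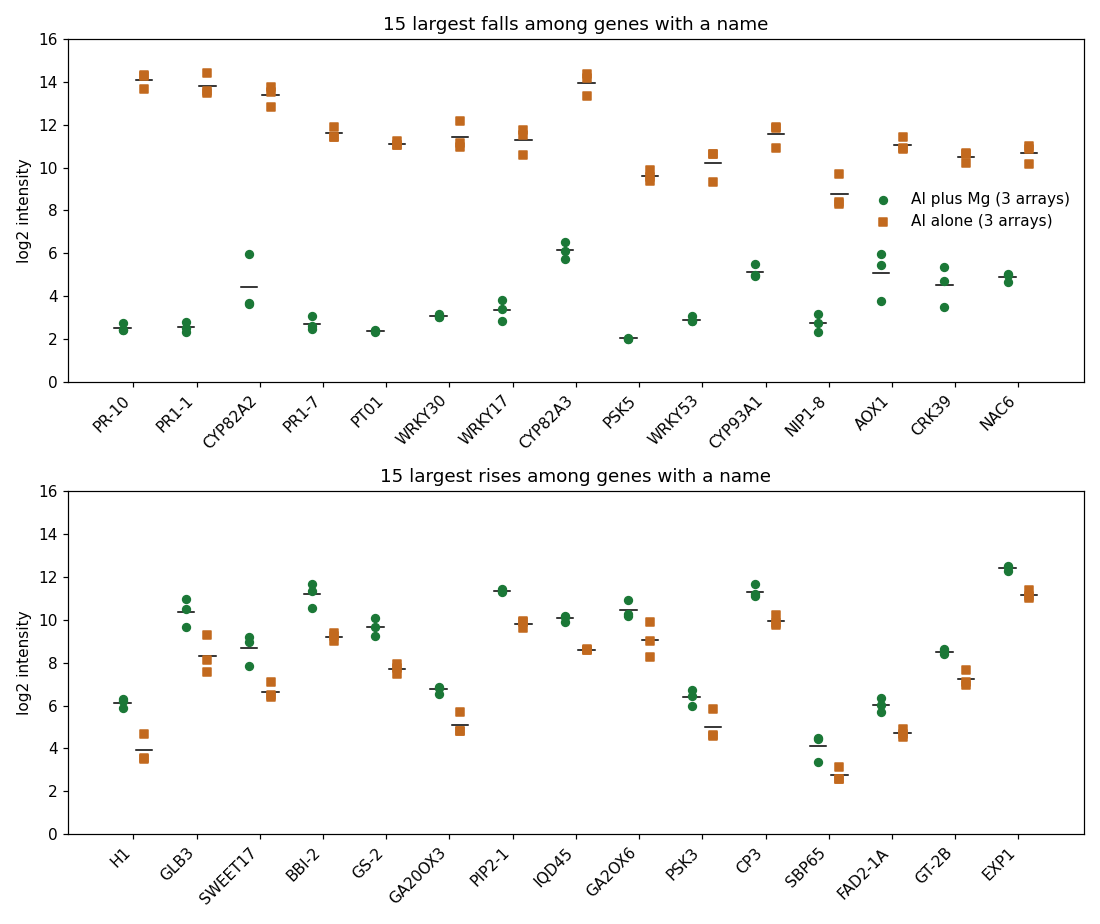
Log2 intensity of the 15 largest falls (upper panel) and the 15 largest rises (lower panel) among genes with a symbol, 1 point for each of 3 Al plus Mg arrays (circles) and 3 Al alone arrays (squares), with bars at group means. Al plus Mg points lie between 2 and 7 for the falling genes, against 8 to 15 with Al alone, while the means of the rising genes differ by 1.25 to 2.22.

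The list of defence proteins, which includes PR-10, PR1-1 and PR1-7, held 30 genes, of which 17 fell, 16 of them at least 2-fold, and 4 rose. Its median log2 difference was -1.32, or -1.19 with arrays at background set to their bound. Without the 3 genes already described, 14 of 27 fell and 4 rose, with a median of -1.07. The chitinase chib1-a, an enzyme that breaks chitin of fungal walls, was at 2.18, 2.77 and 3.23 with Al plus Mg, with 2 arrays at background, against 10.01, 10.39 and 10.05 with Al alone (log2 difference -7.43, adjusted p = 1.55e-09). OLPa, an osmotin-like protein, fell by 4.85 on the log2 scale (adjusted p = 2.29e-08). EDS1-2, a regulator of resistance to pathogens in Arabidopsis, fell by 2.94 (adjusted p = 5.02e-09). The falls thus included both secreted end products and a regulator.

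WRKY factors, which bind the promoters of many defence genes, were also mostly lower. Of 53 WRKY genes 29 fell, 26 at least 2-fold, and 5 rose, none of these by 2-fold, with a median of -1.06 (-0.69 with arrays at their bound). WRKY30 was at 3.04, 3.18 and 3.03 with Al plus Mg, against 10.97, 12.15 and 11.15 with Al alone (log2 difference -8.34, adjusted p = 1.88e-05). WRKY17 was at 3.39, 2.86 and 3.84 with Al plus Mg, against 11.50, 11.76 and 10.58 with Al alone (log2 difference -7.91, adjusted p = 5.61e-08). In both genes 1 Al plus Mg array was at background and the groups lay more than 6 log2 units apart. WRKY21 was at background on all 3 Al plus Mg arrays and at 8.51, 8.05 and 7.84 with Al alone, at least 33.5-fold lower (adjusted p = 3.76e-14). WRKY57 fell by 4.98, WRKY19 fell by 3.23 and WRKY32 fell by 1.58.

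Of 20 NAC factors, a plant-specific family with members that act in stress and senescence, 14 fell and none rose, 12 of the falls at least 2-fold, with a median of -1.88. NAC6 was at 5.01, 5.02 and 4.68 with Al plus Mg, against 10.99, 10.85 and 10.15 with Al alone (log2 difference -5.76, SE 0.45, adjusted p = 5.28e-08). NAC55 fell by 5.02, NAC018 fell by 4.22, NAC69 fell by 2.98 and NAC23 fell by 2.25, each with its Al plus Mg arrays below all Al alone arrays. The other factor families moved both ways. Among 69 MYB factors 16 rose and 11 fell, with a median of 0.04, although MYB127 fell by 4.33 and MYB76, at background on all Al plus Mg arrays, was at least 10.3-fold lower. Among 70 bZIP and bHLH factors 14 rose and 10 fell with a median of 0.13, including BZIP50 at a log2 difference of 1.22, BZIP48 at 1.04 and BZIP68 at -1.32. Of 15 AP2, ERF and DREB factors 1 rose, DREB at 1.03, and 3 fell, and of 19 factors of other families 2 rose and 4 fell. SCOF-1, a zinc finger protein named for its induction by cold in soybean, fell by 3.31.

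Enzymes of the last steps of glyceollin synthesis were far lower with Mg. PT01, a prenyltransferase of glyceollin synthesis, was at 2.38, 2.32 and 2.43 with Al plus Mg, against 11.26, 11.06 and 11.03 with Al alone. It was at background in every Al plus Mg array, at least 265-fold lower (adjusted p = 6.83e-10). G4DT, the prenyltransferase of the parallel branch, was at 7.17, 5.17 and 8.46 with Al plus Mg, against 12.46, 12.97 and 11.55 with Al alone (log2 difference -5.40, adjusted p = 1.38e-05). CYP93A1, the hydroxylase that makes the pterocarpan these enzymes prenylate, was at 4.98, 5.48 and 4.94 with Al plus Mg, against 11.84, 11.90 and 10.89 with Al alone (log2 difference -6.41, adjusted p = 9.1e-09). For all 3 genes the highest Al plus Mg array lay more than 3 log2 units below the lowest Al alone array. IFR, an isoflavone reductase, fell by 4.07 (adjusted p = 1.04e-06). Of the 46 genes of phenylpropanoid, flavonoid and isoflavonoid synthesis 19 fell, 9 at least 2-fold, 1 rose and 11 were at background on all 6 arrays, with a median of -0.30. With array medians made equal 16 fell and 7 rose.

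Other cytochromes P450 were among the largest falls. CYP82A2 was at 3.65, 3.70 and 5.99 with Al plus Mg, against 13.51, 13.75 and 12.83 with Al alone (log2 difference -8.92, adjusted p = 3.72e-08). CYP82A3, of the same subfamily, was at 5.73, 6.13 and 6.55 with Al plus Mg, against 14.18, 14.37 and 13.33 with Al alone (log2 difference -7.82, adjusted p = 6.83e-09). Near-identical members of this subfamily may share probes, so the signal of CYP82A2, CYP82A3 and CYP82A4 may not be separate. CYP71D8 fell by 9.56, with 2 Al plus Mg arrays at background. Of 26 P450 genes 8 fell, all at least 2-fold, and 3 rose, with a median of 0.01.

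Glutathione transferases and alternative oxidases were mostly lower. Of 39 genes of glutathione transferases, which join glutathione to reactive compounds, and of glutathione metabolism, 22 fell, 18 at least 2-fold, and 1 rose, with a median of -0.80. GSTU43 was at background on every Al plus Mg array and at 8.19, 7.80 and 7.09 with Al alone, at least 24.7-fold lower (adjusted p = 6.62e-11). GSTU42 fell by 4.27, GSTU21 fell by 3.90 and GSTU26 fell by 3.02 on the log2 scale. The alternative oxidases, which give respiration in mitochondria a route that bypasses the cytochrome chain, fell in all 3 cases. AOX1 was at 5.99, 3.79 and 5.45 with Al plus Mg, against 11.41, 10.93 and 10.85 with Al alone (log2 difference -5.99, adjusted p = 3.3e-06), while AOX2 fell by 1.54 and AOX3 fell by 1.17. Of 14 peroxidases, catalases, superoxide dismutases and related enzymes only 3 passed, including SOD1 at a log2 difference of 0.40 and PRX4 at -1.13. GLYI-19, of the glyoxalase I family, fell by 3.22, 1 of 10 glyoxalase genes that did, while 3 rose. ALDH3H1, an aldehyde dehydrogenase, fell by 2.55, the only one of 9 that did, while 2 rose.

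Falls also took in stress chaperones, calcium sensors and signal peptides. Of 17 heat shock proteins and factors 6 fell, all at least 2-fold, and 1 rose, with a median of -0.35. HSP90A1, a cytosolic chaperone, was at 8.17, 8.33 and 8.15 with Al plus Mg, against 11.48, 11.77 and 11.26 with Al alone (log2 difference -3.29, adjusted p = 9.06e-07), and the factor HSF-01 fell by 2.69. Of 8 chaperones of the endoplasmic reticulum 2 rose, among them PDIL6 by 0.71, and no fall passed, although 1 did with quantile normalization. Of the divergent calmodulins, which soybean induces on attack by pathogens, SCAM-5 fell by 3.20 and SCAM-4 fell by 2.48. Of 11 calcium signalling genes 5 fell and 3 rose.

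PSK5, a precursor of the growth peptide phytosulfokine, was at 2.05, 2.03 and 2.03 with Al plus Mg, against 9.35, 9.89 and 9.56 with Al alone. All 3 Al plus Mg arrays were at background, which makes the transcript at least 92.6-fold lower (adjusted p = 5.64e-08). PSK3, another phytosulfokine precursor, moved the opposite way, at 6.39 ± 0.36 with Al plus Mg and 5.01 ± 0.70 with Al alone (SD, n = 3, log2 difference 1.38, limma adjusted p = 0.00618). The receptor-like kinase CRK39 fell by 5.98 (adjusted p = 4.07e-06). The 18 receptor-like kinases, MAP kinases and peptides moved both ways, with 8 falls and 7 rises. Among 20 genes of lipoxygenases and jasmonate 3 fell and 1 rose. JAZ1, a repressor of jasmonate signalling, fell by 3.18, while of the jasmonate synthesis enzymes AOC2 fell by 2.01 and AOS2 fell by 1.98. SFERH-2, a ferritin that stores iron, fell by 5.06 (adjusted p = 3.06e-06), while a second ferritin, SFERH-4, was higher by 0.48 (adjusted p = 0.00493).

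The largest rises were smaller than the largest falls. The transcript with the largest rise among genes with a symbol was H1, which despite its symbol is a homeobox gene (synonym Sbh1) and not a histone. H1 was at 6.21, 6.29 and 5.86 with Al plus Mg, against 4.69, 3.49 and 3.54 with Al alone, above background throughout (log2 difference 2.22, SE 0.29, adjusted p = 1.49e-05). EXP1, an expansin, was at 12.48, 12.49 and 12.29 with Al plus Mg, against 11.01, 11.37 and 11.12 with Al alone (log2 difference 1.25, adjusted p = 7e-05). The trihelix factor GT-2B was higher by 1.29 and the calmodulin-binding protein IQD45 by 1.47. GLB3 was higher by 2.06 (adjusted p = 0.00584), GS-2 by 1.94 (adjusted p = 0.000368) and CP3 by 1.37 (adjusted p = 0.000241), each with no overlap between the groups.

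Of 22 genes of gibberellin metabolism, DELLA proteins and GASA peptides 11 rose, 5 at least 2-fold, and 1 fell, with a median of 0.48. GA20OX3, a synthesis enzyme, was at 6.83, 6.87 and 6.56 with Al plus Mg, against 4.82, 4.83 and 5.69 with Al alone (log2 difference 1.64, adjusted p = 0.00317). GASA13 and GASA14, small secreted peptides named for their response to gibberellin, were higher by 1.22 and 0.72, and GAI2, of the DELLA repressors, by 0.84. The 2-oxidases, which inactivate the hormone, went both ways. GA2OX8 was at 3.41, 2.40 and 3.67 with Al plus Mg, 1 array at background, against 8.68, 8.34 and 7.79 with Al alone (log2 difference -5.11, adjusted p = 2.87e-07). GA2OX6 was higher by 1.39 (adjusted p = 0.0314), a call that was lost when Al alone replicate 2 or 3 or Al plus Mg replicate 1 was left out (adjusted p = 0.073, 0.148 and 0.115).

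Of 8 auxin genes 4 rose and none fell, with a median of 0.53. ADR11, named as an auxin down-regulated transcript, was higher by 1.11 (adjusted p = 9.68e-06), AUX28, of the Aux/IAA repressors, by 0.81 (adjusted p = 0.00161) and the auxin receptor TIR1C by 0.58 (adjusted p = 8.06e-05). Of 21 aquaporins 6 rose and 1 fell. PIP2-1, of the plasma membrane, was at 11.29, 11.45 and 11.35 with Al plus Mg, against 9.61, 9.95 and 9.90 with Al alone (log2 difference 1.54, adjusted p = 2.18e-05), with no overlap. TIP2, of the vacuole membrane, was higher by 1.22 and SIP1-4 by 1.24. NIP1-8, of a class related to nodulin 26, was the one that fell, at 2.74, 2.35 and 3.16 with Al plus Mg, 2 of these arrays at background, against 8.38, 9.68 and 8.28 with Al alone (log2 difference -6.03, adjusted p = 4.2e-09). Of 16 wall genes 3 rose and 4 fell. The polygalacturonase inhibitor PGIP4 fell by 2.93 and the proline-rich wall protein PRP2 fell by 2.24. Of 5 genes of the cell cycle, replication and histones none rose, CDC48 fell by 0.64 and H4 fell by 0.31. The replication clamp PCNA, a marker of dividing cells, had a log2 difference of -0.25 that did not pass (adjusted p = 0.465).

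Genes of transport and metabolism moved both ways. Of 14 genes of organic acid metabolism 7 rose, none by 2-fold, and 1 fell, with a median of 0.45. The 1 fall, in the malate synthase MS, was the largest difference of the list and is named because of its value. MS was at background on all 3 Al plus Mg arrays, and at 5.15, 3.27 and 7.96 with Al alone, at least 5.25-fold lower with Al plus Mg (adjusted p = 0.0412). Its call was lost in 5 of the 6 fits that left out 1 array, and without Al alone replicate 3 the fitted difference was -1.50 (adjusted p = 0.238), against -2.75 with all arrays. PEPC7, a phosphoenolpyruvate carboxylase, was higher by 0.62 (adjusted p = 0.00729), PPCK2, a kinase that activates this enzyme, by 0.79 (adjusted p = 0.000877), and the isocitrate dehydrogenase IDH1 by 0.50 (adjusted p = 0.000419). None of the 3 listed genes of Al tolerance passed. STOP1, in Arabidopsis the factor behind Al and acid tolerance, was at 10.64, 10.32 and 10.35 with Al plus Mg, against 10.37, 10.32 and 10.22 with Al alone (adjusted p = 0.357). FRD3a, of the citrate transporters, was at 9.30, 8.75 and 9.40 with Al plus Mg, against 9.63, 9.17 and 9.67 with Al alone (adjusted p = 0.209). SALI5-4A, named for its induction by Al in soybean, was at 13.68, 13.15 and 13.66 with Al plus Mg, against 13.66, 14.22 and 14.58 with Al alone (adjusted p = 0.255). The groups overlapped for all 3. Their log2 differences were 0.14 (SE 0.11), -0.35 (SE 0.20) and -0.66 (SE 0.42), which does not show that the levels were equal.

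In phosphate and sulfur nutrition 7 of 18 genes rose and 2 fell, none by 2-fold, with PHR24 higher by 0.74 and PHR13 by 0.62, both of the phosphate starvation response factors, and the acid phosphatase PAP01 by 0.96. Of 20 nitrogen genes 5 rose and 3 fell. The cytosolic glutamine synthetase GS1-GAMMA fell by 2.79, while EU3, a urease accessory gene, was higher by 0.85 and the allantoate amidohydrolase AAH by 0.78. Among 17 sugar genes the SWEET transporters split. SWEET29 fell by 3.09 and SWEET34 fell by 2.70, while SWEET42 was higher by 0.77. SWEET17 was at 8.97, 9.20 and 7.84 with Al plus Mg, against 6.39, 7.08 and 6.48 with Al alone (log2 difference 2.02, adjusted p = 0.0435), but it no longer passed in 5 of the 6 fits that left out 1 array, with adjusted p of up to 0.136. The Bowman-Birk protease inhibitors split as well: BBI-2 was higher by 1.99 (adjusted p = 0.000215) and BBI-1 fell by 2.75 (adjusted p = 7.49e-07). Of 19 lipid genes 6 were higher, 1 of them at least 2-fold, and 1 was lower, beside 195 higher of all 1005 genes with a symbol (19.4%). The median of the list was 0.31, and FAD2-3, a fatty acid desaturase, was higher by 0.63. In cysteine synthesis OAS-TL2 fell by 3.46 and OAS-TL7 fell by 1.54, and of 10 genes there and in serine synthesis 3 fell and 2 rose. The 2 rises, both in genes named OAS-TL1, lost their call in 4 and 3 of the 6 fits that left out 1 array. None of the falls named in this paragraph overlapped between groups.

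**Figure D3:**
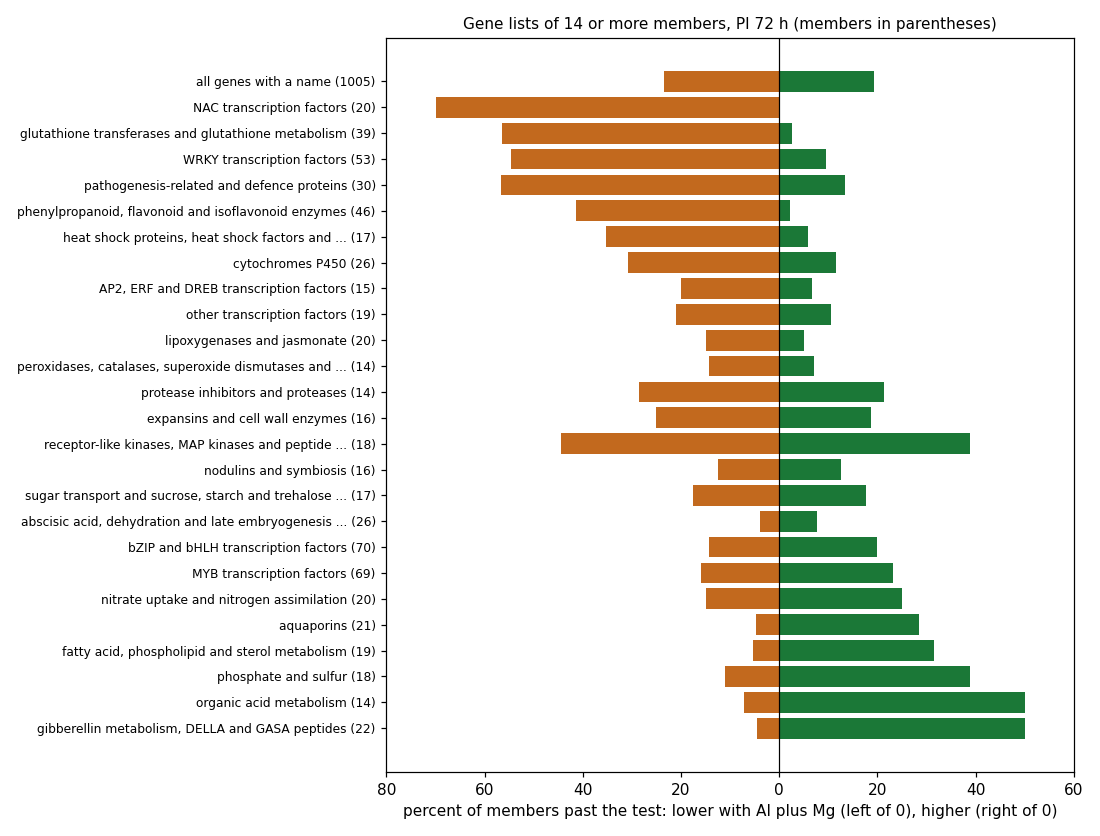
Percent of members past the test in PI roots at 72 h for each list of 14 or more genes, lower with Al plus Mg to the left of 0 and higher to the right, with the number of members in parentheses and all genes with a symbol on top. NAC factors had 70% lower and 0% higher, against 50% higher and 4.55% lower for gibberellin genes.

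In the remaining lists, rises and falls stood side by side for nodulins (2 and 2 of 16), cytoskeleton (3 and 1 of 7), metal transport and storage (3 and 2 of 9), 14-3-3 proteins (1 and 2 of 8), protease inhibitors and proteases (3 and 4 of 14) and abscisic acid and dehydration genes (2 and 1 of 26, with 13 at background throughout). Inositol phosphate genes had 4 rises of 8 and no fall, among them ITPK3 at 0.71 and ITPK1 at 0.43. Rises without a fall were also found in 3 of 6 genes of vesicle traffic, 2 of 12 cyclophilins, 2 of 13 clock, flowering and light genes and 1 of 6 ribosomal proteins and translation factors. In the last 3 lists the shares were 16.67%, 15.38% and 16.67%, below the 19.4% of all genes with a symbol. When 1 array was left out, the vesicle gene RAB2 lost its call in 3 of 6 fits. The translation factor EF1BGAMMA4 lost its call in 4. Of 4 cytokinin and brassinosteroid genes 2 rose, and CKX3, a cytokinin oxidase, fell by 2.04. Among 6 genes of senescence, ubiquitin and autophagy 2 fell. With array medians made equal, rises came to outnumber falls among 14-3-3 proteins (3 and 2), peroxidases and related enzymes (3 and 2), protease inhibitors and proteases (5 and 4) and receptor-like kinases, MAP kinases and peptides (7 and 5). The same happened in 3 lists with equal numbers as deposited. These were seed markers (1 and 1, then 6 and 1), nodulins (2 and 2, then 4 and 2) and markers of green tissue (2 and 2, then 3 and 2). Of 3 ethylene genes 1 fell, ACS1, whose groups overlapped and whose call was lost in 4 of the 6 fits that left out 1 array (adjusted p = 0.0229 with all arrays and up to 0.111 without 1).

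Markers of other tissues, and genes of the cell cycle, replication and histones, were summed over each list. Summed intensity of the 11 seed markers was 56.6 to 59.4 with Al plus Mg, against 54.6 to 74.1 with Al alone, and 9 of them were at background throughout. The 11 markers of green tissue summed to 15490 to 17740 with Al plus Mg, against 13910 to 18300 with Al alone, with 2 higher and 2 lower. The 5 genes of the cell cycle, replication and histones summed to 51230 to 55790 with Al plus Mg, against 64090 to 68340 with Al alone, with no overlap. Their most abundant member was H4, which fell, as did CDC48, and no member passed as higher. With 1 array left out, the log2 difference was 0.20 to 0.60 for POLD1 and 0.14 to 0.47 for CCS52, and neither passed. Whether the sum follows the number of dividing cells was not tested. The 8 genes of sieve element occlusion proteins, markers of phloem, summed to 5714 to 7007 with Al plus Mg, against 5946 to 6847 with Al alone, and 3 of them fell, among which SEO-F3 fell by 1.58. The 16 nodulin and symbiosis genes summed to 3100 to 4886 with Al plus Mg, against 5474 to 9986 with Al alone, again with no overlap, and 10 of them were at background throughout. Their most abundant member was NOD33. NOD33 and SAN1A fell, whereas GLB3 and ENOD93 rose. In the 6 fits that left out 1 array, the call was lost in 5 for NOD33, 4 for ENOD93 and 2 for SAN1A. The part of such differences in the results was not tested.

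Control transcripts with probe sets at both ends bear on RNA integrity, but levels of some of them also differed with Mg. The signal at the 3′ end exceeded that at the 5′ end by 4.12 ± 0.25 (SD, n = 3) with Al plus Mg and 2.51 ± 0.36 with Al alone for a cytochrome P450, and by 3.60 ± 0.28 with Al plus Mg and 2.52 ± 0.27 with Al alone for a glutathione transferase. For the first of 2 actins it was 8.41 ± 0.17 with Al plus Mg and 7.99 ± 0.03 with Al alone, and for the second, the other way, 1.28 ± 0.21 with Al plus Mg and 1.81 ± 0.07 with Al alone. For GAPDH the 3′ end exceeded the middle by 0.09 ± 0.07 with Al plus Mg and 0.14 ± 0.17 with Al alone. The P450 was at 15.47 with Al plus Mg and 15.58 with Al alone at the 3′ end, and at 11.35 and 13.06 at the 5′ end. The glutathione transferase was at 12.74 and 13.78 at the 3′ end, and at 9.14 and 11.25 at the 5′ end. For these genes RNA quality and a change of the transcript cannot be told apart. Controls for ubiquitin and a sucrose-binding protein lay at background at both ends. The part of RNA quality in the results was not tested.

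Over all probe sets, with or without a gene, the largest fall was that of Gma.6089.1.S1_at, which the gene table does not annotate. It was at 2.23, 2.35 and 2.32 with Al plus Mg, against 14.43, 14.45 and 13.86 with Al alone, at least 2321-fold lower (adjusted p = 2.4e-09). The next were PR-10 and PR1-1. Of the 3 largest rises only GmaAffx.37570.1.S1_s_at, also without a gene, was high on every array, at 8.23, 8.53 and 8.24 with Al plus Mg, against 3.90, 4.44 and 5.34 with Al alone (log2 difference 3.78, adjusted p = 1.02e-05). The others were high on only some arrays. GmaAffx.65918.1.A1_at, which the table pairs with the ascorbate peroxidase APX2, was at 9.30, 9.11 and 2.13 with Al plus Mg, against 2.12, 2.12 and 2.12 with Al alone. Gma.12372.1.S1_at was at 9.63, 7.44 and 2.15 with Al plus Mg, against 2.13, 2.13 and 2.13 with Al alone. In both, Al plus Mg replicate 3 lay at background with all Al alone arrays. The probe set of highest mean for APX2 had a log2 difference of -0.31 that did not pass.

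A comparison with the 12 h arrays asked whether the difference with Mg was already present early. At 12 h 11 probe sets passed between Al plus Mg and Al alone in PI, 0.0293% of those tested. The Mg difference at 72 h minus that at 12 h passed for 6521 probe sets (17.3%), 3502 of them positive (9.32%) and 3019 negative (8.03%). For PR-10 the group means were 12.83 ± 0.62 with Al plus Mg and 12.60 ± 0.47 with Al alone at 12 h, and 2.53 ± 0.21 with Al plus Mg and 14.09 ± 0.35 with Al alone at 72 h (SD, n = 3), a fitted change in the difference of -11.79 (adjusted p = 1.13e-09). With the Al plus Mg arrays at 72 h set to their bounds, the change was -11.25 or beyond. The gene was thus strong in both treatments at 12 h and lay at background after 72 h only with Mg. PSK5 followed another course: it was at 2.05 ± 0.02 with Al plus Mg and 2.10 ± 0.07 with Al alone at 12 h, and at 2.04 ± 0.01 with Al plus Mg and 9.60 ± 0.27 with Al alone at 72 h (fitted change in the difference -7.52, adjusted p = 1.07e-05, and -6.61 with every array at background set to its bound). Its transcript was at background in all these groups but Al alone at 72 h. WRKY30 was at 6.73 ± 1.39 with Al plus Mg and 5.51 ± 2.77 with Al alone at 12 h, and at 3.08 ± 0.08 with Al plus Mg and 11.42 ± 0.64 with Al alone at 72 h (fitted change in the difference -9.56, adjusted p = 0.000424, with 1 Al plus Mg array at background at 72 h). Its mean was thus lower at 72 h than at 12 h with Mg and higher without it. The change over time within each treatment was not tested, and the 12 h arrays spread widely.

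**Figure D4:**
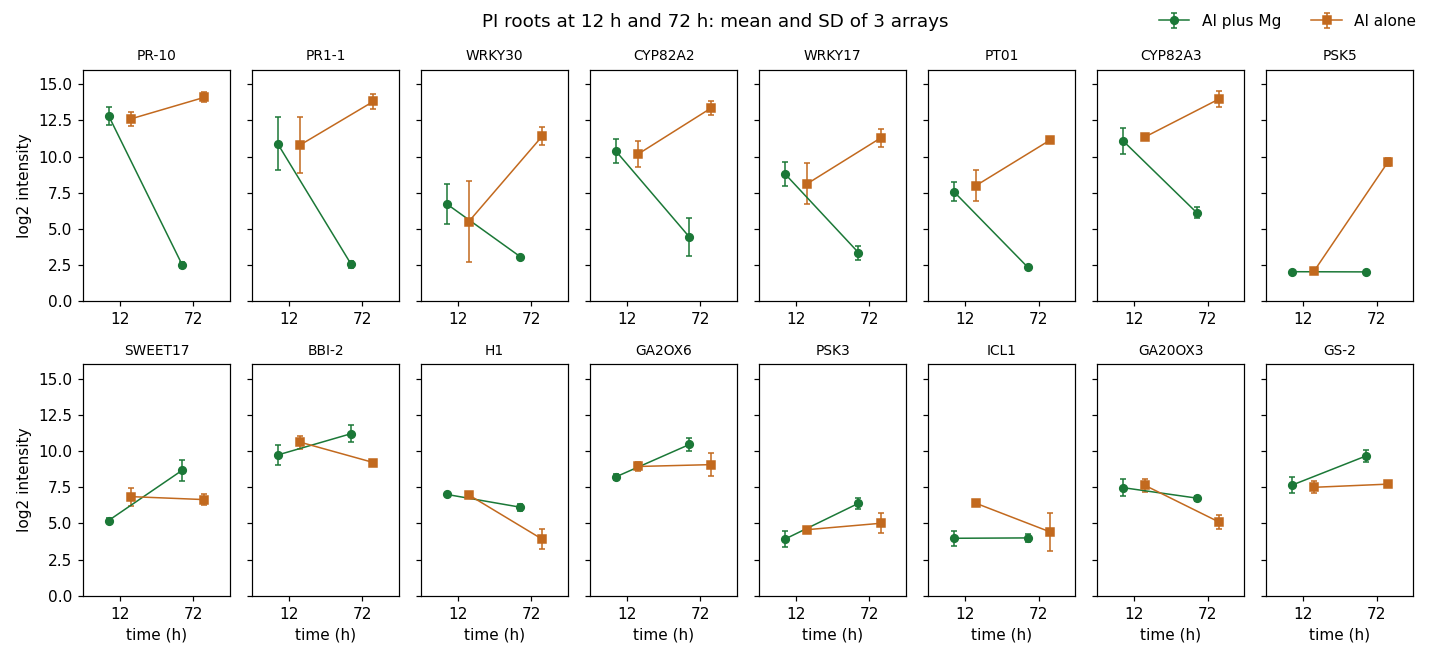
Mean log2 intensity (vertical axis) of PI roots at 12 h and 72 h (horizontal axis) for the genes with the largest negative (upper row) and positive (lower row) change in the Mg difference, circles for Al plus Mg and squares for Al alone, with bars for the SD of 3 arrays. The treatments lie close together at 12 h for PR-10 and PR1-1 and more than 11 units apart at 72 h.

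Group means give the course of the larger sets, as a description with no test, since the 72 h arrays also chose the sets. Of the 2972 probe sets at least 2-fold lower with Al plus Mg at 72 h, 1838 had a mean at least 1 log2 unit higher at 72 h than at 12 h with Al alone. In 1313 the mean with Al plus Mg was at least 1 unit lower at 72 h than at 12 h, and 621 did both. Median changes over time in this set were -0.83 with Al plus Mg and 1.32 with Al alone, beside 0.01 and -0.00 over all probe sets. Of the 993 that were at least 2-fold higher, 573 gained at least 1 unit over time with Al plus Mg and 131 lost as much with Al alone, with 8 in common and medians of 1.13 with Al plus Mg and -0.08 with Al alone. H1 lost signal over time mainly with Al alone. It was at 7.01 ± 0.12 with Al plus Mg and 6.97 ± 0.22 with Al alone at 12 h, and at 6.12 ± 0.23 with Al plus Mg and 3.91 ± 0.68 with Al alone at 72 h. BBI-2 was at 9.73 ± 0.71 with Al plus Mg and 10.62 ± 0.45 with Al alone at 12 h, and at 11.20 ± 0.58 with Al plus Mg and 9.21 ± 0.17 with Al alone at 72 h (change in the difference 2.89, adjusted p = 0.000472).

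In Young roots at 72 h, whose arrays are separate from those of PI, the same comparison gave 14788 probe sets (39.3%), 8679 higher (23.1%) and 6109 lower (16.3%). Of those at least 2-fold lower with Mg in PI, 2400 were also at least 2-fold lower in Young, which is 80.75% of the PI set and 71.43% of the 3360 in Young (8.94% of those tested). Of those at least 2-fold higher, 730 were shared, 73.51% of the PI set but 30.85% of the 2366 in Young (6.29% of those tested). None of the rises and 3 of the falls in PI passed 2-fold in the opposite direction in Young. PR-10 in Young was at 2.56 ± 0.25 with Al plus Mg and 14.19 ± 0.28 with Al alone, a log2 difference of -11.63 (PI minus Young 0.07, adjusted p = 0.985).

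The test of the difference between genotypes, PI minus Young, passed for 544 probe sets (1.45%), 302 positive (0.803%) and 242 negative (0.644%). Without Young Al plus Mg replicate 2, 301 passed, 166 positive and 135 negative, and without Young Al alone replicate 2, 152 negative ones did. In 268 of the 544 both genotypes moved the same way and Young moved farther, in 96 PI moved farther, and in 180 the signs were opposite, with 38 of these passing in each genotype. SABATH2, of a family of methyltransferases that act on salicylic acid, jasmonic acid and the like, had the largest fitted difference among genes with a symbol. In PI it was at 2.49, 2.52 and 2.48 with Al plus Mg, against 2.45, 4.48 and 4.60 with Al alone, a difference that did not pass (adjusted p = 0.0574). In Young it was at 2.48 ± 0.05 with Al plus Mg and 11.68 ± 0.26 with Al alone (PI minus Young 7.85, adjusted p = 1.56e-05, and 7.95 with every array at background set to its bound). Low signal in PI with Al alone, at background on 1 of the 3 arrays, thus stood beside strong signal in Young.

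**Figure D5:**
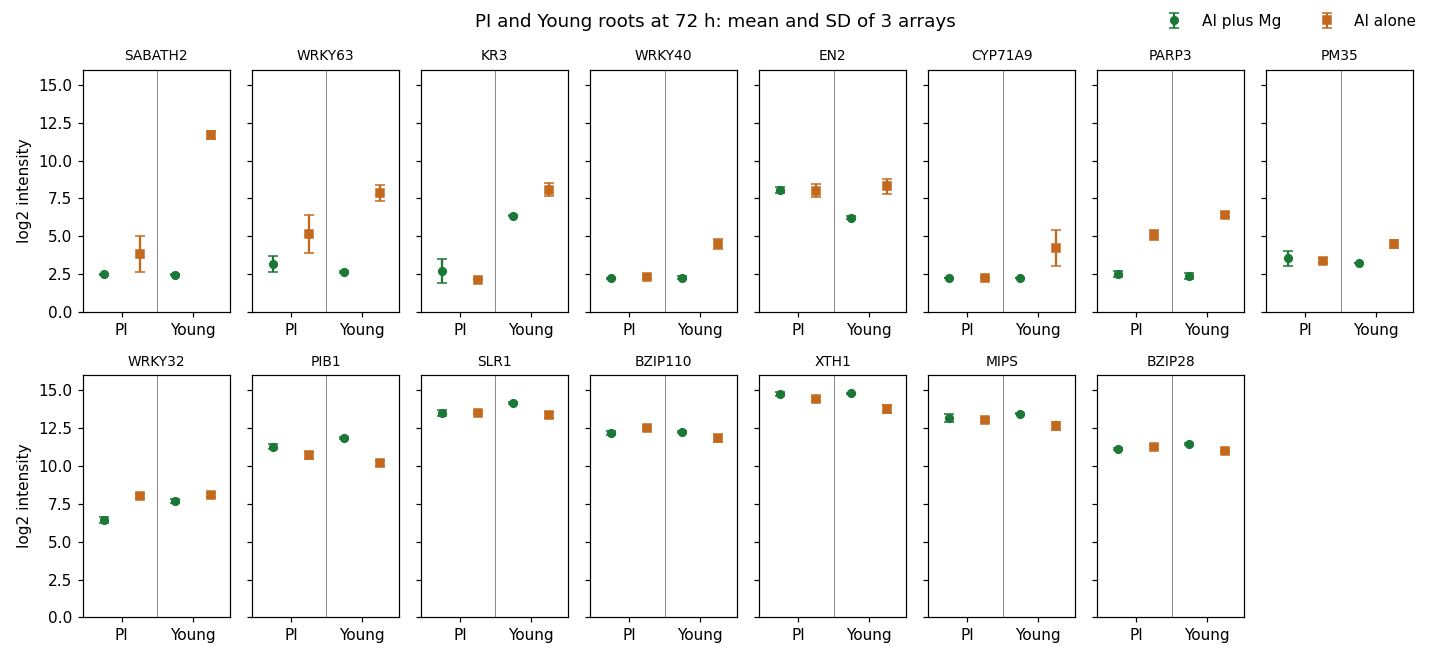
Mean log2 intensity (vertical axis) at 72 h in PI (left of each panel) and Young (right) for the largest 8 positive and 7 negative differences between genotypes that passed among genes with a symbol, circles for Al plus Mg and squares for Al alone, with bars for the SD of 3 arrays. SABATH2 with Al alone lies near 4 in PI and near 12 in Young.

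Of the 15 genes with a symbol that the rule named here, 8 passed in every one of the 12 fits that left out 1 array. These were SABATH2, WRKY40, KR3, PARP3, PM35, PIB1, SLR1 and BZIP28. WRKY40 was at background on all 6 PI arrays, and in Young it was at 2.27 ± 0.09 with Al plus Mg and 4.50 ± 0.35 with Al alone (PI minus Young 2.13, adjusted p = 2.13e-06, and 1.94 with arrays at their bounds). KR3, of the resistance protein type with a TIR domain, was at 2.70 ± 0.79 with Al plus Mg and 2.13 ± 0.04 with Al alone in PI, and at 6.36 ± 0.03 with Al plus Mg and 8.08 ± 0.43 with Al alone in Young (PI minus Young 2.28, adjusted p = 0.00594). Its level in PI was thus near background in both treatments. PARP3, a poly(ADP-ribose) polymerase, was lower with Mg in both, at 2.49 ± 0.20 with Al plus Mg and 5.10 ± 0.32 with Al alone in PI and at 2.38 ± 0.21 with Al plus Mg and 6.44 ± 0.15 with Al alone in Young (PI minus Young 1.46, adjusted p = 0.00198). PIB1 was at 11.27 ± 0.17 with Al plus Mg and 10.69 ± 0.21 with Al alone in PI, and at 11.82 ± 0.07 with Al plus Mg and 10.21 ± 0.20 with Al alone in Young (PI minus Young -1.03, adjusted p = 0.00237). SLR1 had a Mg difference of 0.01 in PI that did not pass, and of 0.81 in Young (PI minus Young -0.79, adjusted p = 0.0116).

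Among all 1005 genes with a symbol, 11 passed between the genotypes with a positive difference (1.09%) and 7 with a negative one (0.697%). In the defence list 2 of 30 passed with a positive difference, in the WRKY list 3 with a positive and 1 with a negative one, and in the NAC and glutathione transferase lists none. In Young the falls in these lists were 17 of 30, 32 of 53, 17 of 20 and 22 of 39, beside 274 of the 1005 genes (27.3%). The gibberellin list rose in 14 of 22 in Young, beside 234 of the 1005 (23.3%), with 1 fall, and 1 member passed between genotypes.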

How the data were processed

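Labelled RNA of root tips was hybridised to Affymetrix soybean arrays, and 6 of the 24 were compared. The authors deposited an intensity for every probe set on each array, on a linear scale. How background was corrected, probes were summarised and arrays were normalized is not stated in the labels or file headers. The deposited intensities were floored at 1 and turned to log2, and no column lay outside the 24 arrays.

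A limma fit (limma 3.58.1 under R 4.3.3) took in all 8 groups, with 16 residual degrees of freedom, and gave every adjusted p in the text unless another fit is named. Benjamini-Hochberg adjustment ran over the 37593 probe sets with the prefix Gma, and the threshold was 0.05. Background was read from 23394 probe sets of other prefixes: their 99th percentile on an array was its bound, and the 95th percentile of their means, 2.40, the signal filter. Where all arrays of a group were at or under their bounds, folds were taken against the bounds and are minimum values. Other log2 differences are fitted values, also where some arrays of a group were at background. Values at the bounds for differences between times and genotypes were added after the data were seen. In PI at 72 h the bounds were higher with Al plus Mg, which raises the difference of genes at background in both groups. The median log2 difference of the seed list, with 9 of 11 genes at background throughout, was 0.03 as fitted and 0.28 at the bounds. The fit was tested on simulated data with planted changes.

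Names came from the platform's gene table and a RefSeq table of Glycine_max_v4.0, which paired 8677 probe sets with a single gene, 6031 genes in all. Each gene was represented by its probe set of highest mean. The rule for naming took the 15 largest rises and falls without overlap among the 1005 genes with a symbol, up to 5 passing members of a list by smallest p, lists of 5 or fewer in full, the 8 largest of each sign in both difference tests, and the 3 largest rises and falls over all probe sets. Not all of these are printed. The comparison, lists and tests were chosen with earlier results of these data known. H1 left the list of cell cycle genes and histones after its values were seen, because its synonym Sbh1 marks a homeobox gene.

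Replicate numbers were not used as pairs in the main fit. Deviations of same-numbered arrays from their group means correlated at 0.40, 0.04 and -0.10, beside -0.31 to 0.27 for arrays of different numbers. The value for replicate 1 was the highest, and deviations from a mean of 3 arrays are not independent. These values therefore do not decide whether the numbers pair the samples. Alternative settings were a 2-fold limit, a signal filter, inclusion of the other prefixes, quantile normalization, equal medians over arrays or over other prefixes, limma's trend and robust options, smaller sets of arrays, a replicate block, an offset of 32 added to intensities, and omission of single arrays.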

Additional observations from a re-analysis of the deposited data

Results flagged for a closer look

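The Mg difference in PI minus that in Young, tested in one model, passed for 544 probe sets at 72 h. The genes with a symbol among the largest were, on the log2 scale, SABATH2 at 7.85, WRKY63 at 3.24, KR3 at 2.28, WRKY40 at 2.13, EN2 at 2.09, CYP71A9 at 2.01, PARP3 at 1.46 and PM35 at 1.42. Negative were WRKY32 at -1.19, PIB1 at -1.03, SLR1 at -0.79, BZIP110 at -0.75, XTH1 at -0.71, MIPS at -0.71 and BZIP28 at -0.60. These are fitted values, and with every array at background set to its bound CYP71A9 was at 1.67, WRKY40 at 1.94, KR3 at 2.17, WRKY63 at 3.16, PARP3 at 1.57 and SABATH2 at 7.95. Of these genes WRKY63, EN2, CYP71A9, WRKY32, BZIP110, MIPS and XTH1 lost their call in 6 to 11 of the 12 fits that left out 1 array, with adjusted p of up to 0.121.

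The Mg difference in PI at 72 h minus that at 12 h passed for 6521 probe sets. Negative were PR-10 at -11.79, PR1-1 at -11.36, WRKY30 at -9.56, CYP82A2 at -9.15, WRKY17 at -8.62, PT01 at -8.32, CYP82A3 at -7.56 and PSK5 at -7.52. In PR-10, PR1-1, PT01 and PSK5 all Al plus Mg arrays at 72 h were at background, so the values are fitted and give no order of size. With arrays at background set to their bounds they were -11.25 or beyond for PR-10, -10.85 or beyond for PR1-1, -7.63 or beyond for PT01, and -6.61 for PSK5, whose arrays at 12 h were at background as well. WRKY30 and WRKY17, each with 1 such array, were then at -9.55 and -8.52. Positive were SWEET17 at 3.67, BBI-2 at 2.89, H1 at 2.18, GA2OX6 at 2.11, PSK3 at 2.03, ICL1 at 1.99, GA20OX3 at 1.79 and GS-2 at 1.785. In this test SWEET17, GA2OX6, ICL1, GA20OX3 and GS-2 lost their call in some of the 12 fits that left out 1 array.

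Probe sets without the soybean prefix, which set the bounds and the signal filter, were also tested in a fit over all probe sets but controls. They passed as higher with Al plus Mg in 6178 cases and as lower in 35.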

How the results depend on the processing

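The number of arrays and the background of the probe sets limit these results: the falls at background have only a lower bound, and small rises were also called among probe sets for other organisms. In PI at 72 h, 12685 probe sets passed, 10549 to 11698 with 1 of these arrays left out. The 2-fold limit left 3965 (993 higher and 2972 lower), a count that is smaller by construction. Adding the probe sets of other prefixes gave 19829, 14952 of them higher. The 6 arrays alone, with fewer degrees of freedom, gave 8007, 4491 of them higher. The counts at 2-fold under other settings were added after seeing the data: rises were 574 with an offset of 32 and 1562 with quantile normalization, 914 to 1107 with 1 array left out, and falls were 2709 to 3084 with 1 array left out, and the cause of the first 2 shifts was not tested. For the difference between genotypes 544 passed, 321 at 2-fold (172 positive and 149 negative), 221 with these 12 arrays alone (120 and 101) and 301 to 673 with 1 array left out (166 to 385 positive, 135 to 288 negative), and 149 negative ones passed among all probe sets. For the difference between times 6521 passed, 3234 at 2-fold, with 882 positive. With the replicate number as a block, 12230 probe sets passed in PI at 72 h (7423 higher and 4807 lower), 426 between genotypes and 6142 between times. Whether the numbers pair the samples is not known, so the block counts are a description only. ETR2 and IPT, which did not pass, changed sign: ETR2, at -0.07 as reported, was at 0.0174 with equal array medians and at -0.276 to 0.213 with 1 array left out, and IPT, at 0.02, was at -0.068 to 0.0992 with 1 array left out. Of the genes named by the rule in PI at 72 h, 161 of 205 passed in all 6 fits that left out 1 array. The 205 include members of small lists that did not pass with all arrays, such as STOP1, ETR2 and IPT. The 161 are therefore not a share of calls alone. Among the members counted as passing in the lists, GLYII-6 and ALDH7B1, among others, lost their call in 5 of the 6 fits. CAT4, ERF5, IPK2 and PCS1 lost theirs in 4, and DREB2A2 in 3.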

Other observations

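Of the 3 largest rises over all probe sets, 2 had a signal in some PI Al plus Mg arrays only. GmaAffx.65918.1.A1_at, paired with APX2, was at 9.51, 9.25 and 10.34 in the PI Al plus Mg arrays of 12 h, beside 9.30, 9.11 and 2.13 in those of 72 h, and at 2.11 to 2.12 in the other 18 arrays. Gma.12372.1.S1_at was at 7.38 to 9.88 in the PI Al plus Mg arrays of 12 h, beside 9.63, 7.44 and 2.15 at 72 h, and at 2.13 to 2.14 in the other 18. Both passed in the fit over all groups (adjusted p = 0.00407 and 0.00735). Neither passed with the 6 compared arrays alone (0.192 and 0.207) or with the PI arrays alone (0.0502 and 0.0681).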
